A study of Mus musculus with 6 samples.

Results

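The enzymes described here write and erase acetyl and methyl groups on histones, and their transcripts were measured in single mouse oocytes. Members were all probes whose annotation held a single gene symbol of the Hdac, Sirt, Kat, Kdm, Kmt, Setd or Prmt families, or of named methyltransferases and acetyltransferases, which gave 52 probes for 51 genes. The array holds 33012 probes, and 13840 genes have a probe with a single symbol. Only Kdm2b had more than 1 probe. The rule also names enzymes such as Ep300, Crebbp, Setd2, Ehmt1, Suv39h1, Hdac9 and the Kmt2 family, which matched no probe with a single symbol and are not analysed here.

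Each array held the amplified cDNA of 1 oocyte. The groups were 3 mature oocytes from [Ago2F/F, Zp3-Cre] females, called Ago2-deficient, and 3 wild-type oocytes labelled as germinal vesicle (GV) stage. Both came from adult females, without any other treatment in the labels than hyaluronidase to strip the cumulus cells. The Zp3 promoter drives Cre in the growing oocyte, deletion in growing oocytes was nearly but not fully complete by the study's account, and the study allows that its allele may keep some function. The label of the GV oocytes places them in the oviduct, as the methods do for ovulated oocytes, so their stage is given here as the label has it. Genotype and stage changed together, and their parts in any difference below cannot be told apart. Whether each oocyte had its own donor animal is not stated, and the p-values below rest on the spread among these 6 oocytes alone.

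Acetylation of histone lysines by acetyltransferases opens chromatin to transcription, and deacetylases of the zinc-dependent HDAC family and of the NAD-dependent sirtuin family remove it. Methyl groups are added by SET-domain enzymes, whose effect depends on the lysine, and by arginine methyltransferases, and are removed by demethylases. The growing oocyte builds up histone methylation and acetylation until the GV stage. Transcription then stops, and in meiotic maturation many lysines are deacetylated while the stored transcripts are translated or degraded.

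Detection on an array meant a signal at least 3 times its noise. Of the 52 enzyme probes, 14, 15 and 22 were detected in Ago2-deficient oocytes and 30, 31 and 31 in GV oocytes. No Ago2-deficient array reached the GV range (mean 17.0 ± 4.36 in Ago2-deficient oocytes and 30.7 ± 0.577 in GV oocytes, SD, n = 3 arrays in each group), with p = 0.1 in a two-sided exact permutation test, below which a design of this size cannot go. All probes of the array moved the same way, with 14.0%, 20.2% and 20.6% of them detected in Ago2-deficient oocytes and 34.3%, 32.4% and 32.3% in GV oocytes. The median unscaled signal of undetected probes was 231.2, 220.4 and 144.9 on the Ago2-deficient arrays and 83.3, 77.4 and 70.8 on the GV arrays. An undetected probe therefore did not stand for the same signal in both groups. The part of these array-wide differences in the results below was not tested.

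Enzyme families varied in how many of their transcripts were seen at all. All 5 sirtuins on the array were detected in every GV oocyte. None of the 5 arginine methyltransferases was, and neither were the H3K4 methyltransferases Setd1a and Setd7. There were 12 probes detected on no array, those for Hdac7, Hdac8, Kat5, Ezh1, Kmt5c, Dot1l, Setd1a, Setd5, Kdm5c, Prmt1, Prmt6 and Prmt8. A further 14 were detected on some arrays but not on all 3 of either group, namely Kat2b, Kat6b, Kat7, Hdac5, Hdac11, Setd7, Kdm1a, Kdm2a, Kdm4b, Kdm4d, Kdm5d, Kdm8, Prmt2 and Prmt3. The remaining 26 probes, for 25 genes, were detected on all 3 GV arrays. Of these, 11 were detected on all 6 arrays, 9 in 1 or 2 Ago2-deficient oocytes and 6 in no Ago2-deficient oocyte, and no enzyme was detected in all Ago2-deficient oocytes without being detected in all GV oocytes.

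**Figure D1:**
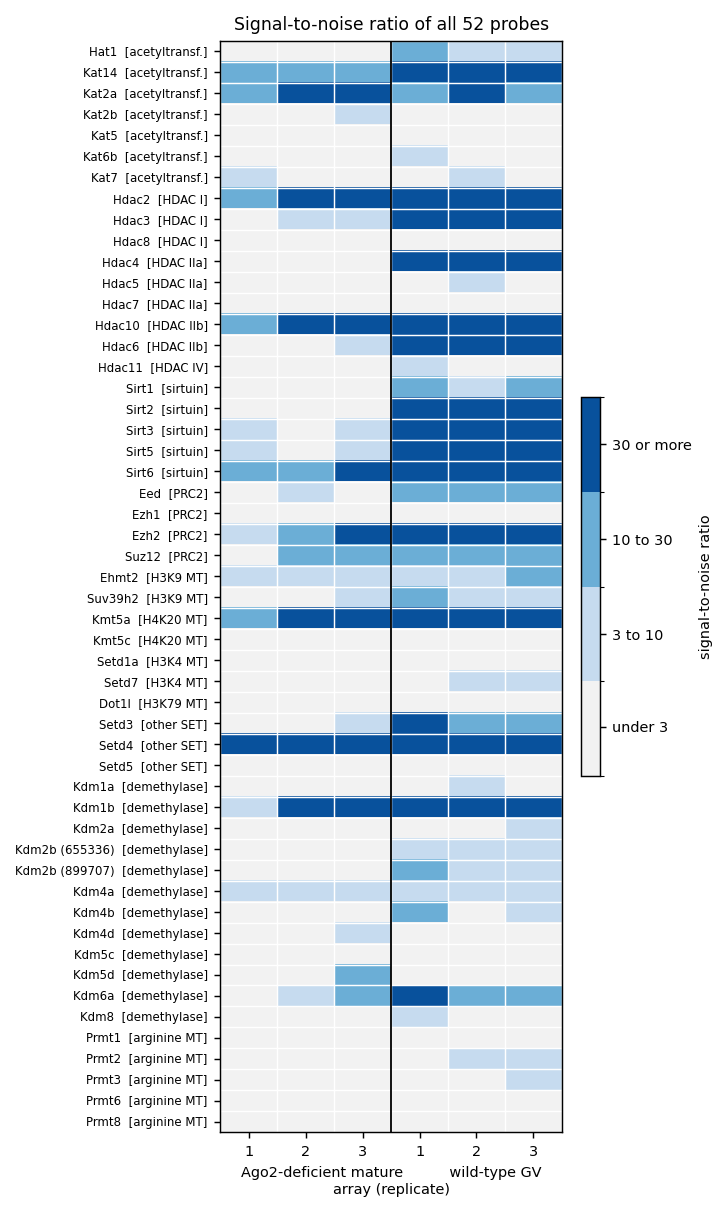
Signal-to-noise ratio (colour, in 4 steps) of the 52 enzyme probes (rows, grouped by role) on the 3 Ago2-deficient and 3 GV arrays (columns); pale cells are under the detection limit of 3. The Ago2-deficient columns hold 14, 15 and 22 detected probes and the GV columns 30, 31 and 31.

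Testing was limited to probes detected throughout either group, which left 26 of the 52. Differences are given on the log2 scale as Ago2-deficient minus GV, from the values that the authors quantile normalized, and the fit was made with limma over all 8018 tested probes. A call needed an adjusted p below 0.05 and more than a 2-fold change. Since all 26 passed through the GV oocytes, their number says nothing about direction. For 15 of them the GV oocytes were the only way through the filter, which favours lower calls. Of the 26 probes, 2 were called higher and 13 lower, and 11 were not called. Those 15 probes gave 9 of the 13 lower calls and 0 higher calls, so the split between directions is tilted by the filter. Among all tested probes 62.2% were called, 17.3% higher and 44.8% lower, so the 15 enzyme probes called (57.7%) lie near the background. The median difference was -1.42 for the enzymes and -1.39 for all tested probes. At an unadjusted p under 0.05 there were 17 enzyme probes. The 2 groups did not overlap in 16 enzyme probes (61.5%), the 15 called ones and that for Hdac3, beside 70.4% of all tested probes. All values are relative to the other probes of an array, so that a lower level of 1 transcript and a loss of RNA that spared others cannot be told apart.

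The split between higher and lower calls depended on the scaling between arrays. It was 2 and 13 on the quantile-normalized values, 6 and 8 with cyclic loess, 2 and 15 with no scaling, and 0 and 20 when all arrays were scaled to 1 common median. For all tested probes it was 1391 and 3594 on the quantile-normalized values, 1973 and 2543 with cyclic loess, 621 and 4835 with no scaling, and 318 and 6305 with the common median. Leaving out Ago2-deficient replicate 1, the array with the fewest detected probes, gave 6 higher and 13 lower enzyme probes. The median difference of all tested probes was -0.36 with cyclic loess, -1.97 with no scaling and -3.08 with a common median, beside -1.39 on the quantile-normalized values.

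Among the 11 enzymes detected on all 6 arrays, whose values do not rest on signals under the detection limit, Kat2a and Hdac10 were higher (18.2%), and Kat14, Sirt6, Setd4 and Ezh2 were lower (36.4%). Of all 2512 probes detected on all 6 arrays, 43.6% were higher and 20.2% lower. Of the other 15 tested probes, detected in 0 to 2 Ago2-deficient oocytes, 9 were lower and none was higher (60.0% lower, beside 58.75% of all such probes).

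**Figure D2:**
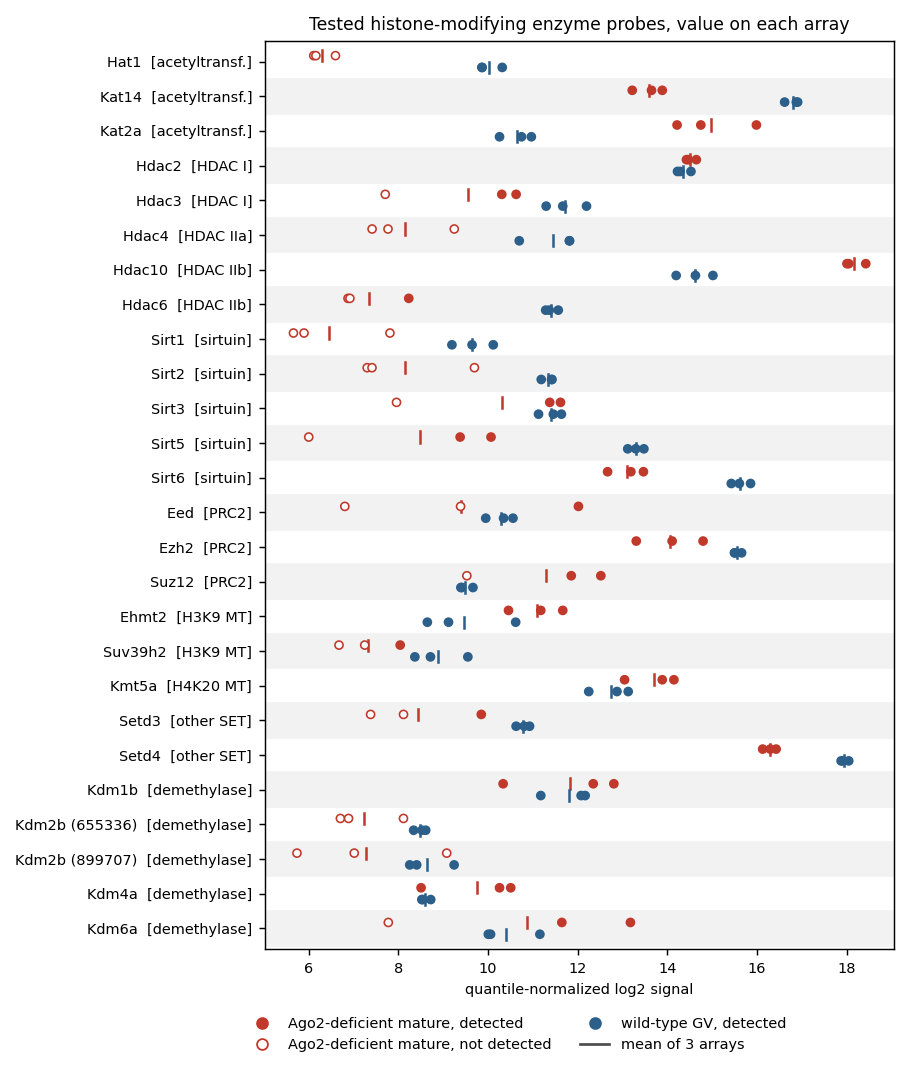
Quantile-normalized log2 signal (horizontal axis) of the 26 tested enzyme probes (rows, grouped by role) on each array; red symbols are Ago2-deficient and blue symbols GV oocytes, open symbols are below the detection limit, and vertical ticks are means of 3 arrays. Kat2a and Hdac10 are the only rows in which all red symbols lie right of all blue ones.

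The acetyltransferases went in opposite directions. Kat2a, also known as GCN5, is the catalytic subunit of the SAGA and ATAC coactivator complexes. Its signal was 14.75, 15.99 and 14.22 in Ago2-deficient oocytes and 10.26, 10.97 and 10.75 in GV oocytes. Every Ago2-deficient oocyte lay above every GV oocyte, by 4.33 on average (standard error 0.52, adjusted p = 0.000666 from limma, 20.1-fold). With arrays scaled to a common median the difference was 1.48 and the call was lost (adjusted p = 0.0649). Kat2b, the close relative of Kat2a, was detected only in Ago2-deficient replicate 3, at 7.57, and was not tested.

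Kat14 is another acetyltransferase of the ATAC complex. It read 13.89, 13.65 and 13.22 in Ago2-deficient oocytes and 16.62, 16.88 and 16.91 in GV oocytes. It was detected on all arrays and was lower by -3.21 (standard error 0.33, adjusted p = 0.000382 from limma). Hat1, which acetylates newly made histone H4 before it is deposited, read 6.12, 6.60 and 6.16 in Ago2-deficient oocytes, all below the detection limit, and 10.32, 9.87 and 9.87 in GV oocytes. Where no array of a group detected a gene, its fold is given as a bound, with each undetected value raised to the lowest detected signal of its array if it lay under that. That signal is the lowest of any detected probe on the array, and undetected probes can read above it. The bound therefore holds only for the quantile-normalized values as read. For Hdac4, Sirt2 and Kdm2b probe 655336 no value was raised, so the bound equals the fitted fold and is given as a plain fold. With cyclic loess the differences of Hat1, Hdac4 and Sirt2 were smaller, at -2.64, -1.31 and -1.36. Hat1 was at least 12.8-fold lower (log2 difference -3.73, standard error 0.33, adjusted p = 0.000247 from limma). The other acetyltransferases, Kat5, Kat6b, Kat7 and Kat2b, were each detected on at most 2 of the 6 arrays.

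Of the zinc-dependent deacetylases, Hdac10 was higher, Hdac4 and Hdac6 were lower, and Hdac2 and Hdac3 were not called. Hdac2, a class I enzyme of the Sin3, NuRD and CoREST corepressors, read 14.47, 14.65 and 14.43 in Ago2-deficient oocytes and 14.53, 14.23 and 14.29 in GV oocytes. The groups overlapped and the difference was 0.17 (standard error 0.30, adjusted p = 0.646 from limma). That value followed the scaling, at -1.87 with no scaling (adjusted p = 0.00881) and -2.97 with a common median (adjusted p = 0.000297), both called. Hdac3, the enzyme of the NCoR corepressor, was at 7.71, 10.63 and 10.31 in Ago2-deficient oocytes and 12.20, 11.67 and 11.30 in GV oocytes. The groups did not overlap, but Hdac3 just missed the threshold at -2.17 (standard error 0.80, adjusted p = 0.0509 from limma). It passed without any 1 of the Ago2-deficient arrays (-1.25, -2.71 and -2.55 without replicates 1, 2 and 3, adjusted p = 0.0285, 0.0335 and 0.0482). It did not pass without any 1 of the GV arrays (adjusted p = 0.152, 0.118 and 0.0912). Hdac3 was called at -3.49 with no scaling (adjusted p = 6.29e-05) and at -4.60 with a common median (adjusted p = 1.14e-05), and was at -0.64 with cyclic loess (adjusted p = 0.208). Hdac8 was detected on no array.

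Hdac4, a class IIa deacetylase that shuttles between cytoplasm and nucleus, read 7.77, 7.42 and 9.25 in Ago2-deficient oocytes, with none detected, and 10.70, 11.82 and 11.82 in GV oocytes. It was 9.86-fold lower on the quantile-normalized values (adjusted p = 0.00320 from limma), but under cyclic loess it missed the threshold (-1.31, adjusted p = 0.0602). Its relatives of class IIa were hardly seen: Hdac7 was detected on no array and Hdac5 on 1 GV array.

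The class IIb deacetylases, which act mainly outside the nucleus, moved in opposite directions. Hdac6, the tubulin deacetylase, read 6.88, 6.92 and 8.23 in Ago2-deficient oocytes, with only the last detected, and 11.37, 11.57 and 11.29 in GV oocytes. Its difference was -4.06 (standard error 0.45, adjusted p = 0.000499 from limma), and -1.93 with cyclic loess, still called. Hdac10, a polyamine deacetylase, read 18.05, 18.01 and 18.43 in Ago2-deficient oocytes and 14.20, 15.02 and 14.63 in GV oocytes. Every Ago2-deficient oocyte was above every GV oocyte, by 3.55 (standard error 0.36, adjusted p = 0.000353 from limma, 11.7-fold), although with a common median the difference was 0.88 and the call was lost (adjusted p = 0.180). Hdac11, the class IV enzyme, was detected on 1 GV array. On Ago2-deficient replicate 1 its normalized value was 12.33 with a signal-to-noise ratio of -0.72, so its highest value came from an array that did not detect it.

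Of the 5 sirtuins 4 were called lower and none higher, beside 44.8% lower among all tested probes and 58.75% among those not detected in all Ago2-deficient oocytes, as Sirt1, Sirt2, Sirt3 and Sirt5 were not. Sirt1, the nuclear sirtuin that deacetylates histones and transcription factors, read 5.66, 7.81 and 5.90 in Ago2-deficient oocytes and 10.12, 9.20 and 9.65 in GV oocytes. Sirt2, a mainly cytoplasmic sirtuin that also acts on H4K16 in mitosis, read 9.70, 7.31 and 7.42 in Ago2-deficient oocytes and 11.43, 11.42 and 11.19 in GV oocytes. Neither was detected in any Ago2-deficient oocyte. On the quantile-normalized values Sirt1 was at least 7.48-fold lower (adjusted p = 0.00482 from limma) and Sirt2 was 9.24-fold lower (adjusted p = 0.00598). With arrays left out in turn the bound for Sirt1 ran from 6.04-fold to 10.8-fold, and with cyclic loess its difference was -2.43. Without Ago2-deficient replicate 1 Sirt2 was 15.9-fold lower, and under cyclic loess Sirt2 missed the threshold (-1.36, adjusted p = 0.0719). Without Ago2-deficient replicate 2 the fitted difference of Sirt1 was -3.87, beside -3.20 over all arrays.

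Sirt5, a mitochondrial enzyme that removes succinyl and malonyl groups, had the lowest fitted difference of the enzymes over all 6 arrays, but not without Ago2-deficient replicate 2. It read 9.38, 6.0 and 10.07 in Ago2-deficient oocytes, with the second undetected, and 13.48, 13.12 and 13.30 in GV oocytes. Its difference was -4.82 (standard error 1.02, adjusted p = 0.00620 from limma), -3.58 without Ago2-deficient replicate 2, where Hat1, Sirt1 and Hdac6 were lower at -3.88, -3.87 and -3.85, and -5.61 without Ago2-deficient replicate 3. Sirt6, a chromatin-bound sirtuin that deacetylates H3K9 and H3K56, was detected on all arrays. It read 13.19, 12.67 and 13.47 in Ago2-deficient oocytes and 15.43, 15.86 and 15.61 in GV oocytes, and was lower by -2.53 (standard error 0.35, adjusted p = 0.00113 from limma). Sirt3, the main mitochondrial deacetylase, was at 11.62, 7.96 and 11.38 in Ago2-deficient oocytes and 11.13, 11.64 and 11.46 in GV oocytes. Only Ago2-deficient replicate 2 stood apart, undetected. The difference of Sirt3 was -1.09 (adjusted p = 0.360 from limma), and 0.095 without that oocyte. With no scaling it was called at -2.82 and with a common median at -3.93.

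**Figure D3:**
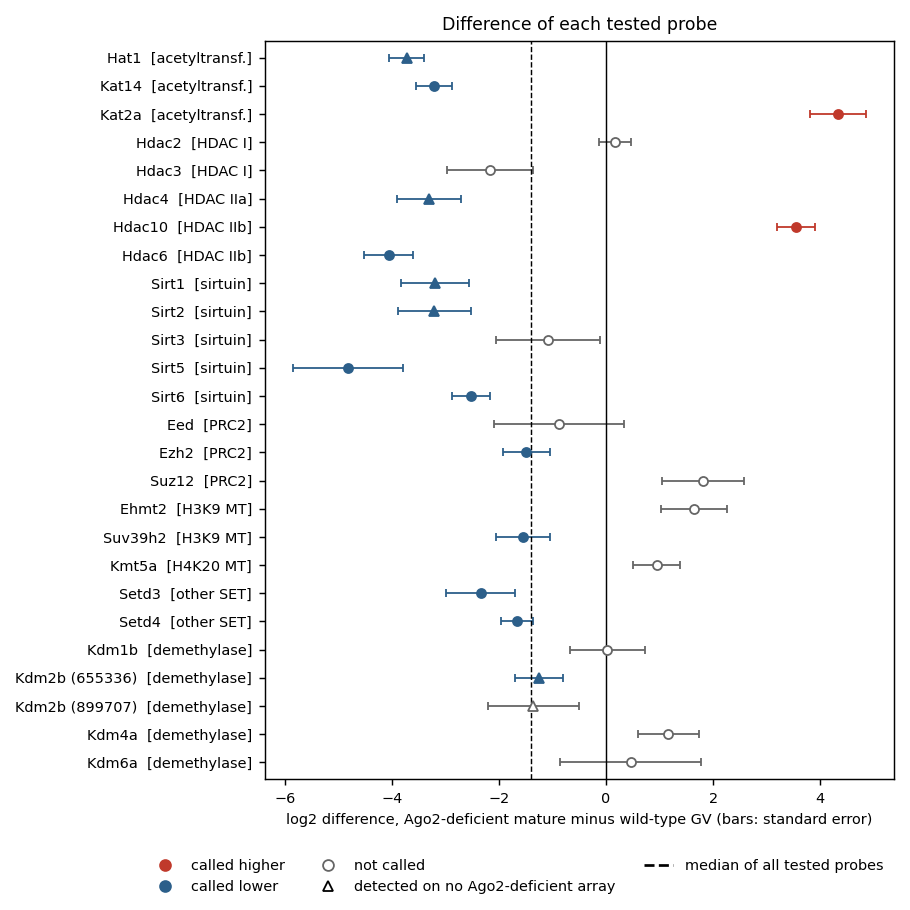
Log2 difference, Ago2-deficient minus GV (horizontal axis), with its standard error from limma, for the 26 tested enzyme probes (rows, grouped by role); filled symbols are called, open symbols are not, triangles were detected on no Ago2-deficient array, and a dashed line marks -1.39, the median over all tested probes. The filled red symbols are Kat2a at 4.33 and Hdac10 at 3.55, and of the 5 sirtuins 4 are filled blue.

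Polycomb repressive complex 2 (PRC2) methylates H3K27 and needs its catalytic subunit together with Eed, which reads the mark, and Suz12, which holds the complex together. Ezh2, the catalytic subunit, was lower, at 13.31, 14.11 and 14.80 in Ago2-deficient oocytes and 15.66, 15.51 and 15.50 in GV oocytes. The groups did not overlap, at a fitted -1.49 for Ezh2 (standard error 0.44, adjusted p = 0.0237 from limma), near the median of all tested probes. The call was lost when any 1 GV array was left out (-1.44, -1.51 and -1.52 without replicates 1, 2 and 3, adjusted p = 0.0791, 0.0726 and 0.0716). The other catalytic subunit, Ezh1, was detected on no array.

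The partners of Ezh2 varied among the Ago2-deficient oocytes. Suz12 read 9.53, 11.86 and 12.52 there and 9.40, 9.42 and 9.67 in GV oocytes. Its difference of 1.81 was not called (standard error 0.77, adjusted p = 0.0776 from limma), but was called at 2.70 without Ago2-deficient replicate 1 (adjusted p = 0.00118), where Suz12 was undetected, and at 3.45 with cyclic loess, and it was -0.39 with a common median. Eed read 9.39, 12.02 and 6.81 in Ago2-deficient oocytes, detected only in the second, and 10.56, 10.35 and 9.95 in GV oocytes. Its difference was -0.88 (standard error 1.22, adjusted p = 0.552 from limma), and 0.42 without Ago2-deficient replicate 3. With a common median Eed was called lower at -2.91 (adjusted p = 0.00387), and with cyclic loess it was at 0.87.

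Of the H3K9 methyltransferases, Ehmt2, known as G9a, which places the dimethyl mark, was at 11.18, 11.67 and 10.46 in Ago2-deficient oocytes and 8.65, 9.12 and 10.62 in GV oocytes. The third oocyte of each group overlapped, and the difference of 1.64 just missed the threshold (standard error 0.61, adjusted p = 0.0516 from limma). It was called without Ago2-deficient replicate 3 (1.96, adjusted p = 0.0410) and without GV replicate 3 (2.22, adjusted p = 0.0189), was called at 2.97 with cyclic loess and when the fit kept only probes that all 6 arrays detected (adjusted p = 0.0223), and was -0.75 with a common median. Suv39h2, which places the trimethyl mark of heterochromatin, read 6.68, 7.25 and 8.04 in Ago2-deficient oocytes, detected only in the last, and 9.55, 8.72 and 8.37 in GV oocytes. It was called lower at -1.56 (standard error 0.50, adjusted p = 0.0320 from limma), near the median of all tested probes. The call was lost without Ago2-deficient replicate 1 or 2 (-1.23 and -1.52, adjusted p = 0.0612 and 0.0702) and without GV replicate 1 or 2 (-1.22 and -1.64, adjusted p = 0.111 and 0.0789), with cyclic loess (-0.70, adjusted p = 0.273) and with no scaling (-1.18, adjusted p = 0.0981).

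Kmt5a, also known as Set8, places the monomethyl mark on H4K20. It read 13.05, 13.89 and 14.16 in Ago2-deficient oocytes and 12.25, 12.88 and 13.13 in GV oocytes. Only Ago2-deficient replicate 1 lay within the GV range, and the difference of 0.95 was not called (standard error 0.44, adjusted p = 0.0981 from limma). Without that oocyte it was called at 1.27 (adjusted p = 0.0264), and with a common median at -2.40. Of the other SET-domain genes, Setd4, a little-studied methyltransferase, read 16.43, 16.13 and 16.30 in Ago2-deficient oocytes and 17.91, 18.05 and 17.88 in GV oocytes. Its values lay close together within each group (SD 0.15 in Ago2-deficient oocytes and 0.09 in GV oocytes), and Setd4 was lower by -1.66 (standard error 0.30, adjusted p = 0.00305 from limma). That difference was also near the median of all tested probes. Setd3, an actin histidine methyltransferase, read 7.38, 8.12 and 9.85 in Ago2-deficient oocytes, detected only in the last, and 10.81, 10.63 and 10.93 in GV oocytes. It was called lower at -2.34 (standard error 0.64, adjusted p = 0.0174 from limma). Setd3 was -3.04 without Ago2-deficient replicate 3, lost its call without Ago2-deficient replicate 2 (-2.17, adjusted p = 0.0504) and without GV replicate 1, 2 or 3 (adjusted p = 0.0589, 0.0512 and 0.0614), and was -0.40 with cyclic loess (adjusted p = 0.393).

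Of the 5 tested demethylase probes, 2 of them for Kdm2b, 1 was called lower and none higher on the quantile-normalized values, beside 44.8% lower and 17.3% higher among all tested probes. With cyclic loess Kdm4a and Kdm6a were called higher and no demethylase lower. Kdm1b, the H3K4 demethylase needed to set up maternal DNA methylation imprints in mouse oocytes, read 10.34, 12.35 and 12.81 in Ago2-deficient oocytes and 12.08, 11.18 and 12.17 in GV oocytes. The groups overlapped and the difference was 0.02 (standard error 0.70, adjusted p = 0.979 from limma), but -1.89 with no scaling and -2.99 with a common median, both called. Its relative Kdm1a was detected on 1 GV array. Kdm6a, an X-linked H3K27 demethylase, read 7.78, 11.65 and 13.18 in Ago2-deficient oocytes and 11.16, 10.01 and 10.06 in GV oocytes. No other tested enzyme spread as widely among the Ago2-deficient oocytes (SD 2.78). Its difference was 0.46 (standard error 1.32, adjusted p = 0.778 from limma), 2.01 without Ago2-deficient replicate 1 (adjusted p = 0.0264, called), 2.25 with cyclic loess (adjusted p = 0.0330, called) and -0.70 without Ago2-deficient replicate 3.

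Kdm4a, which removes methyl groups from H3K9 and H3K36, read 8.51, 10.26 and 10.51 in Ago2-deficient oocytes and 8.54, 8.53 and 8.73 in GV oocytes. It was not called at 1.16 (standard error 0.57, adjusted p = 0.116 from limma) and was called without Ago2-deficient replicate 1 (1.78, adjusted p = 0.00318) and with cyclic loess (2.35), with -0.30 under a common median. Kdm2b, an H3K36 demethylase that also brings a Polycomb complex to CpG islands, had the pair of probes 655336 and 899707, both detected in all GV and no Ago2-deficient oocytes. Probe 655336 read 8.12, 6.71 and 6.89 in Ago2-deficient oocytes and 8.61, 8.34 and 8.53 in GV oocytes. It was 2.39-fold lower on the quantile-normalized values (log2 difference -1.26, adjusted p = 0.0468 from limma), near the median of all tested probes. Its call was lost without Ago2-deficient replicate 2 or 3 (-0.99 and -1.08, adjusted p = 0.112 and 0.101) and without GV replicate 1, 2 or 3 (adjusted p = 0.130, 0.104 and 0.126), with cyclic loess (adjusted p = 0.0676) and with no scaling (adjusted p = 0.268). Probe 899707 read 5.74, 7.02 and 9.08 in Ago2-deficient oocytes and 9.25, 8.41 and 8.26 in GV oocytes, so that its groups overlapped. It was not called at -1.36 (adjusted p = 0.200) and was called at -2.26 without Ago2-deficient replicate 3 (adjusted p = 0.0139).

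The values spread more widely among the Ago2-deficient than among the GV oocytes. Over the 26 tested enzyme probes the median SD was 0.94 in Ago2-deficient oocytes and 0.26 in GV oocytes, and the SD was larger in Ago2-deficient oocytes for 23 of them (88.5%). For all tested probes the median SD was 0.74 in Ago2-deficient oocytes and 0.28 in GV oocytes, and it was larger in Ago2-deficient oocytes for 80.1%. All 26 enzyme probes were detected in every GV oocyte, but 15 of them were not detected in every Ago2-deficient oocyte. The same held for 5253 of the 8018 tested probes. The Ago2-deficient SD thus includes signals under the detection limit, and their part in the wider spread was not tested. Ago2-deficient replicate 1 was the lowest of its group in, among others, Suz12, Kdm6a, Kdm4a, Kdm1b, Kmt5a, Ezh2 and Hdac3. Replicate 2 was the lowest in Sirt2, Sirt3, Sirt5, Sirt6, Hdac4, Hdac10, Setd4 and Kdm2b probe 655336. No array was lowest throughout, and replicate 1 was the highest of its group in Kat14, Sirt2, Sirt3, Setd4 and Kdm2b probe 655336. How often each array was lowest among all tested probes was not counted.

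The 26 untested probes had means of 6.04 to 9.75 in Ago2-deficient oocytes and 6.19 to 8.24 in GV oocytes. With no filter on dim probes, 1 of them was called, that for Prmt2, an arginine methyltransferase and coactivator. Prmt2 read 6.57, 6.04 and 6.65 in Ago2-deficient oocytes and 7.56, 8.75 and 8.41 in GV oocytes, where 2 arrays detected it. In that fit its difference was -1.82 (adjusted p = 0.0390 from limma). Kdm5d, an H3K4 demethylase gene on the Y chromosome, was detected only in Ago2-deficient replicate 3, at 11.28 with a signal-to-noise ratio of 10.49, beside 7.18 and 6.79 on the other Ago2-deficient arrays and 7.22, 7.54 and 6.89 in GV oocytes. The oocytes came from females, which carry no Y chromosome, so this signal is not read as a Kdm5d transcript. Its source was not tested. Kdm5c, the X-linked relative of Kdm5d, was undetected on that array at 8.86. Kdm4b, an H3K9 demethylase, read 11.19, 11 and 7.06 in Ago2-deficient oocytes, all undetected at signal-to-noise ratios of 0, 0.34 and 1.25, and 9.15, 6.74 and 8.40 in GV oocytes, detected in the first and last. As for Hdac11, its highest values were thus not its detected ones.

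RefSeq promoter windows are shown for the enzymes that were called and detected on all 6 arrays. A window was found for 47 of the 51 genes, 11 of them with more than 1 entry, and none for Hdac10. Kat2a is thus the only higher gene shown, so the windows allow no comparison of higher with lower genes. Each runs from 250 bases before to 50 bases after the most upstream start on GRCm38.p6. Kat2a, which was higher, lies at chr11:100712418-100712717 on the minus strand. Of the lower genes, Kat14 lies at chr2:144368782-144369081 on the plus strand, Sirt6 at chr10:81627517-81627816, Setd4 at chr16:93603766-93604065 and Ezh2 at chr6:47594981-47595280, all 3 on the minus strand. Capitals mark GC boxes (GGGCGG) and CCAAT boxes (CCAAT) on either strand.
Kat2a: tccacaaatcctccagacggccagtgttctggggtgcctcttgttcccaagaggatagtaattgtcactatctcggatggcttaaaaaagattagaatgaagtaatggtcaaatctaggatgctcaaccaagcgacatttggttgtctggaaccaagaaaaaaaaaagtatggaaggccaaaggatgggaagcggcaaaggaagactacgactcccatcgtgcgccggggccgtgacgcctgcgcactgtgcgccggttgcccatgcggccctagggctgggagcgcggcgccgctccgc
Kat14: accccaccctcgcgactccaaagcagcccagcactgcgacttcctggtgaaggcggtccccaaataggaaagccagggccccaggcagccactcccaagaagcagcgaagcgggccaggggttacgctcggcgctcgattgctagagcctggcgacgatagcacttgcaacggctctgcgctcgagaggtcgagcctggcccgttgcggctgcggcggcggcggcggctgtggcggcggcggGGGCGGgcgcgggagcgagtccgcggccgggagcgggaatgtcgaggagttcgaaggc
Sirt6: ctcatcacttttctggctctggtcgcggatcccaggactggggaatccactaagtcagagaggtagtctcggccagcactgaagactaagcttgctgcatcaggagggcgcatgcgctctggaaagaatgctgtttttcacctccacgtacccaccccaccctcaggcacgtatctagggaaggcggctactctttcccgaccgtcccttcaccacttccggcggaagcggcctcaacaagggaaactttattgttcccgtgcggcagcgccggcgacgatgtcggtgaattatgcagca
Setd4: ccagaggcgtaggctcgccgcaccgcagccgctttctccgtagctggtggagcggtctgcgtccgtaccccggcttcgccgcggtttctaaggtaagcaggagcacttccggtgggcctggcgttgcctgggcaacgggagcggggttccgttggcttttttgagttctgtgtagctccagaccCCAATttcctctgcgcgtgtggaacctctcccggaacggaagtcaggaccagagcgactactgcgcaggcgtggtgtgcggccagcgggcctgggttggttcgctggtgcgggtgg
Ezh2: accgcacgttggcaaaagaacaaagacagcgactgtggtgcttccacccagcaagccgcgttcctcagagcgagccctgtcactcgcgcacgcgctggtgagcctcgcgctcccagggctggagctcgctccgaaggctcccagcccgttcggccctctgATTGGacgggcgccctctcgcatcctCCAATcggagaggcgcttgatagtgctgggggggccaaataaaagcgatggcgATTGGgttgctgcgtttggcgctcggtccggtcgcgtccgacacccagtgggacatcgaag

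Among these 5 windows, that of Kat14 held 1 GC box, that of Setd4 held 1 CCAAT box and that of Ezh2 held 3, while those of Kat2a and Sirt6 held none of either. They held 19 (Kat2a), 36 (Kat14), 20 (Sirt6), 29 (Setd4) and 31 (Ezh2) CG dinucleotides, and none held a TATA box (TATAAA). Over the 47 enzyme windows, 55.3% held a GC box, 55.3% a CCAAT box, 6.38% a TATA box and 17.0% an E-box (CACGTG), on either strand. Of all 27025 windows of the same length, 35.9% held a GC box, 38.0% a CCAAT box, 14.2% a TATA box and 7.24% an E-box. The median number of CG dinucleotides was 21 in the enzyme windows and 7 in all windows. These are matches of letters and not binding sites.

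The ends of the order of enzymes were the same under each scaling, over all 6 arrays. Kat2a was the highest and Sirt5 the lowest of the 26 probes under quantile normalization, cyclic loess, no scaling and a common median. The common median shifts each array by a constant. It therefore gives the same order as no scaling by construction and adds nothing on the order. The enzymes between Sirt3 and Suz12 crossed zero with the scaling: Hdac2, Kdm1b, Kdm6a and Kmt5a were below 0 with no scaling and with a common median, Kdm4a, Ehmt2 and Suz12 were below 0 only with a common median, and Sirt3 and Eed were above 0 only with cyclic loess. The size of the lower differences also followed the scaling. Over the 4 scalings Hat1 lay between -4.88 and -2.64, Kat14 between -6.08 and -3.15, Sirt1 between -4.27 and -2.43, Sirt5 between -7.27 and -3.33, Sirt6 between -5.64 and -2.49, Setd4 between -4.00 and -1.66 and Ezh2 between -4.55 and -1.49, called throughout. With no scaling Kat2a was at 2.58 and Hdac10 at 1.99, both called.

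**Figure D4:**
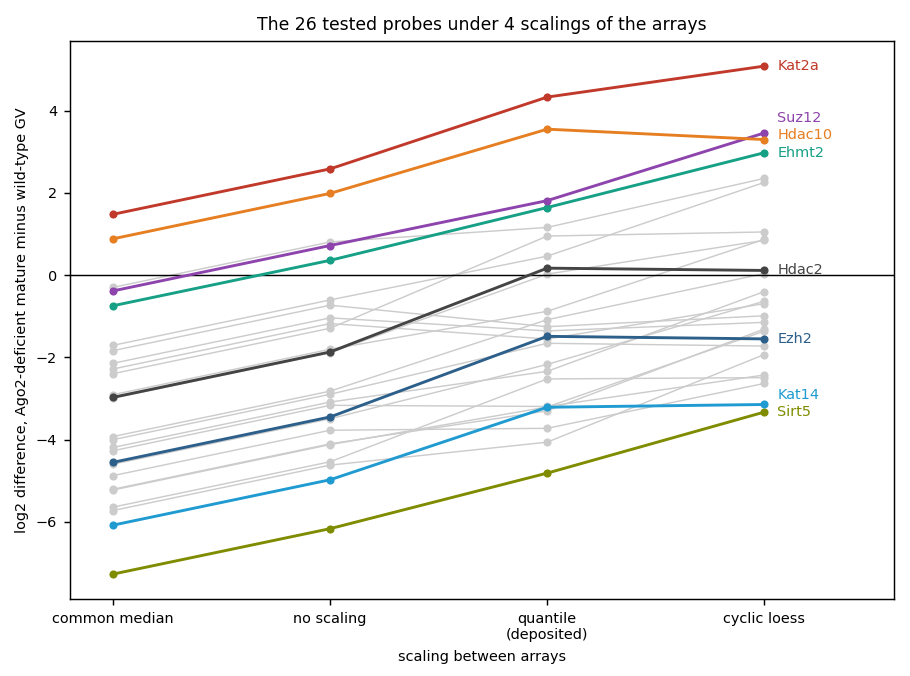
Log2 difference, Ago2-deficient minus GV (vertical axis), of the 26 tested enzyme probes under 4 scalings of the arrays (horizontal axis); each line is a probe, and 8 are coloured and named. All lines shift with the scaling, Kat2a stays above 0 at 1.48 to 5.08, and Hdac2 moves between -2.97 and 0.17.

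Partner proteins that carry these enzymes in complexes were counted in the same fit. Of 94 partner probes 60 were tested, with 10 called higher and 23 lower, beside 17.3% higher and 44.8% lower among all tested probes, and their median difference was -0.81. In the HDAC and LSD1 corepressor complexes 4 of 18 were higher and 6 lower. Hmg20b, a subunit of the CoREST complex, was higher by 5.89 (6.69 without GV replicate 2), detected in 1 GV oocyte. In the SAGA, ATAC and NuA4 complexes, which hold Kat2a, Kat14 and Kat5, 1 of 15 was higher and 6 were lower. Sgf29, which reads H3K4 methylation for SAGA and ATAC, differed by -4.23 (-4.93 without Ago2-deficient replicate 2). Among partners of the MSL, NSL and MOZ acetyltransferase complexes 1 of 6 was higher and 3 were lower. The largest difference there was that of Kansl3 at -6.20 (-7.40 without Ago2-deficient replicate 1 and -5.26 without replicate 2).

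In the COMPASS complexes of H3K4 methylation 1 of 5 was higher and 1 lower, Wdr5, the shared scaffold, at -4.54 (-3.84 without Ago2-deficient replicate 1 and -5.62 without replicate 3). Of 5 probes for PRC2 accessory proteins 1 was higher and 1 lower. The lower one was for Jarid2, which brings PRC2 to its targets. It was undetected in every Ago2-deficient oocyte and 6.67-fold lower, again with no value raised. Among other lysine methyltransferases and JmjC proteins 4 of 5 were lower, with Smyd3 at least 26.1-fold. Among partners of Dot1l 2 of 3 were lower, with Mllt3 at -3.86 (-3.24 without Ago2-deficient replicate 2 and -4.48 without replicate 3). Of all tested probes 44.8% were lower, and of those not detected in all Ago2-deficient oocytes 58.75%. The latter include Smyd3 and all 3 probes for partners of Dot1l. Of the readers of histone marks, 3 bromodomain genes, which bind acetylated histones, were tested. Of these 2 were higher, with Brd3 at 4.04, beside 17.3% of all tested probes. The 8 partner genes named here and above with a difference, a fold or a bound had adjusted p-values of 0.000249 to 0.00482 from limma.

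The Ago2 probe read 6.67, 6.49 and 6.94 in Ago2-deficient oocytes and 7.88, 6.25 and 6.93 in GV oocytes, where it was detected on 1 array, and it does not check the genotype, since nothing read here tells whether its sequence lies within the deletion. Of 9 oocyte markers, 7 were detected in all Ago2-deficient oocytes (Zp2 and Figla in none) and 9 in all GV oocytes, with summed signals of 1120544 to 1275559 in Ago2-deficient oocytes and 3457675 to 3828274 in GV oocytes. Of 13 cumulus and granulosa markers, 0 to 3 were detected in an Ago2-deficient and 4 or 5 in a GV oocyte, with summed signals of 2398 to 3612 in Ago2-deficient oocytes and 4560 to 7105 in GV oocytes. Inha, Hsd17b1 and Nr5a2 were detected in every GV oocyte, Inha and Hsd17b1 in no Ago2-deficient oocyte and Nr5a2 in 1. Fshr, Amh and Has2 were among those detected on no array. Of 7 markers of blood and other ovarian cells, 0 were detected in any Ago2-deficient oocyte and 1 or 2 in a GV oocyte, with summed signals of 1808 to 4049 in Ago2-deficient oocytes and 1274 to 1683 in GV oocytes. The Ago2-deficient sums of this last set hold undetected signals only, such as Pecam1 at 11.54 with a signal-to-noise ratio of 0.01 in replicate 1. They are no measure of more such cells. The part of other cells in the results was not tested.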

How the data were processed

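RNA of single oocytes was amplified to cDNA, transcribed to digoxigenin-labelled cRNA and hybridized to Applied Biosystems V2.0 mouse arrays. Each deposited file gives a signal intensity without scaling between arrays, a deposited signal-to-noise score, a flag code, and log2 values that the authors quantile normalized over the 6 arrays. The deposited series table repeats these log2 values and leaves 2675 cells empty, those with a flag code of 5000 or more. Quantile normalization gives every array the same distribution, so a difference in the total RNA of the oocytes is not seen. Which scanner software was used is not given in the sources here. The number of arrays limits the precision.

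Of the 33012 probes, 14411 carry 1 gene symbol, 247 several and 18354 none. All 52 enzyme probes matched the GRCm38.p6 gene table, and 0 of their symbols changed. The fit used limma 3.58.1 (lmFit, then eBayes; R 4.3.3) on the deposited log2 values, without a replicate block, for probes whose signal-to-noise score was 3 or more on all 3 arrays of a group. Adjusted p-values are Benjamini-Hochberg values over all tested probes, and the fit was checked on simulated data. The simulation gave both groups the same spread, so it could not show how the fit behaves under the unequal spread seen here. Alternatives covered scaling, filter, detection limit, variance model, fold limit, flagged spots, block and left-out arrays. Statmod 1.5.0, Python 3.11.15, scipy 1.17.1 and matplotlib 3.10.9 were also used.

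The members, lists and tests were chosen with earlier results of these data known. Per-array values were given for up to 3 called enzymes with the largest difference and 2 others with the highest mean in each role. Sirt6, Kdm4a and the untested genes given with values were added after their values were seen, and from each group of partners the called gene with the largest difference was named.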

Additional observations from a re-analysis of the deposited data

How the results depend on the processing

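With arrays scaled to a common median, 318 tested probes were higher and 6305 lower, 0 enzyme probes higher and 20 lower, and 2 partner probes higher and 48 lower. With no scaling, 621 tested probes and 2 partner probes were higher. With cyclic loess, 6 enzyme probes were higher and 8 lower. When the fit kept only probes detected on all 6 arrays, 1135 tested, 3 enzyme and 10 partner probes were higher, and 546 tested, 4 enzyme and 6 partner probes were lower. In the fit over all 8018 tested probes, 1094 of these probes were higher and 508 lower, with 2 and 4 enzyme probes among them. With no filter 15 partner probes were lower, and with a fold limit of 4, 5 were higher and 14 lower. With arrays left out in turn, 2 to 6 enzyme probes were higher and 9 to 14 lower, the 6 without Ago2-deficient replicate 1.

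Differences that changed sign, in enzymes that were not called, were those of Sirt3 and Eed with cyclic loess (0.036 and 0.87). With no scaling they were Hdac2 at -1.87, Kdm1b at -1.89, Kdm6a at -0.60 and Kmt5a at -1.29. With a common median they were Hdac2 at -2.97, Kdm1b at -2.99, Kdm6a at -1.71, Kmt5a at -2.40, Kdm4a at -0.30, Ehmt2 at -0.75 and Suz12 at -0.39. With arrays left out in turn Sirt3 ran from -1.74 to 0.095, Eed from -2.19 to 0.42, Kdm1b from -0.47 to 0.77 and Kdm6a from -0.70 to 2.01. The cause was not tested.

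Without a filter on dim probes Setd3, Suv39h2, Ezh2 and Kdm2b were not called (adjusted p = 0.0522, 0.106, 0.0900 and 0.154 from limma).

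The replicate numbers did not pair the oocytes (r = -0.0487, 0.0275 and -0.0339 between deviations of same-numbered arrays), and not every array correlated best with its own number. With a replicate block 1304 tested probes were higher and 3431 lower, 2 enzyme probes were higher and 10 lower, with Ezh2, Suv39h2 and Kdm2b no longer called, and 6 partner probes were higher and 20 lower. Sirt5, Sirt6, Sirt1, Hdac6, Hat1, Kat14 and Setd4 were called in the same direction in every alternative in which they were tested, except Setd4 under the fold limit of 4, although Sirt5, Sirt1, Hdac6 and Hat1 were not among the probes detected on all 6 arrays.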
